A study of Mus musculus with 8 samples.

Results

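Neuropeptides are short peptides cut from larger precursors and released from nerve endings and endocrine cells. Islets receive parasympathetic, sympathetic and sensory fibres. The cell bodies of the intrapancreatic ganglia lie inside the pancreas, while those of sympathetic and sensory fibres lie outside it. Vasoactive intestinal peptide (Vip), gastrin-releasing peptide (Grp) and PACAP (Adcyap1) are known from parasympathetic and intrapancreatic nerves. Substance P (Tac1) and CGRP (Calca) are known from sensory nerves, and neuropeptide Y (Npy) and galanin (Gal) from sympathetic nerves. CART (Cartpt) is found in islet nerves and endocrine cells, proenkephalin (Penk) is the precursor of the enkephalins, and neuromedin U (Nmu) is a gut and brain peptide.

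The 10 genes named above were followed in islets of male C57BL/6J mice on high fat diet (HF, 45 kcal% fat) or normal chow (NC, 4 kcal% fat). The diets began at 4 weeks of age and lasted 12 weeks by the labels, while the methods give 14 weeks. There were 4 samples on HF (replicates 21, 22, 23 and 24) and 4 on NC (replicates 1, 2, 4 and 5), with 1 array each, and each sample was the pooled islet RNA of 2 mice. Mice of both diets carry the naturally occurring Nnt deletion of this strain. The genes were found by annotation, as every probe set assigned to exactly 1 of them. This gave 11 of the 45101 probe sets, which read 9 of the 10 genes, and no probe set listed for Calca alone was found. The values are GCRMA intensities, adjusted for background and normalised across arrays by the authors, on a linear scale. Probe sets were retained by intensity, for which the third-highest of the 8 values had to reach 8.82. Of the 11 probe sets 6 passed (Vip, Grp, Tac1, Gal, Npy and Penk, 1 each), and the other 5 did not. Grp passed only through its NC samples, so that its difference was partly given by the filter.

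The median intensity of the arrays lay between 13.0 and 13.8. Markers of islet endocrine cells were bright on both diets, with Ins2 at 72718 ± 1199 in HF and 67580 ± 432 in NC, and Gcg at 83959 ± 2905 in HF and 83466 ± 1325 in NC (SD, n = 4 each). Digestive enzyme genes of acinar cells were bright as well, for example Cpa1 with 38195 ± 2920 in HF and 38888 ± 4337 in NC. The ratio of the 3' to the 5' control probe set of Actb, a sign of RNA quality, was 2.10 to 2.54 in HF and 2.33 to 2.43 in NC. Samples correlated with their own diet at a mean r of 0.992 to 0.994 in each group and with the other diet at 0.987 to 0.989 across probe sets, which are not independent replicates.

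Vip, Grp, Tac1, Penk and Npy were lower in HF islets, and Gal did not pass the test. A call needed both an adjusted p under 0.05 from limma and a 1.5-fold difference. By this rule 5 of the 6 retained neuropeptide probe sets were lower and 0 were higher, against 3.06% lower and 0.644% higher among all retained probe sets. Without Grp, which the filter retained through NC, the count was 4 of 5. The 5 were all at least 4-fold lower, against 0.429% of all retained probe sets. Vip, Grp, Tac1, Penk and Npy made up the 5, and their HF values were 4.32% to 18.2% of NC by geometric means. In each of these 5 the 4 HF samples lay below the 4 NC samples, which held for 7.84% of retained probe sets. In whole islets, fewer cells of a type and less RNA per cell cannot be told apart. No batch was given in the labels, and the array and its islet pool vary together.

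**Figure D1:**
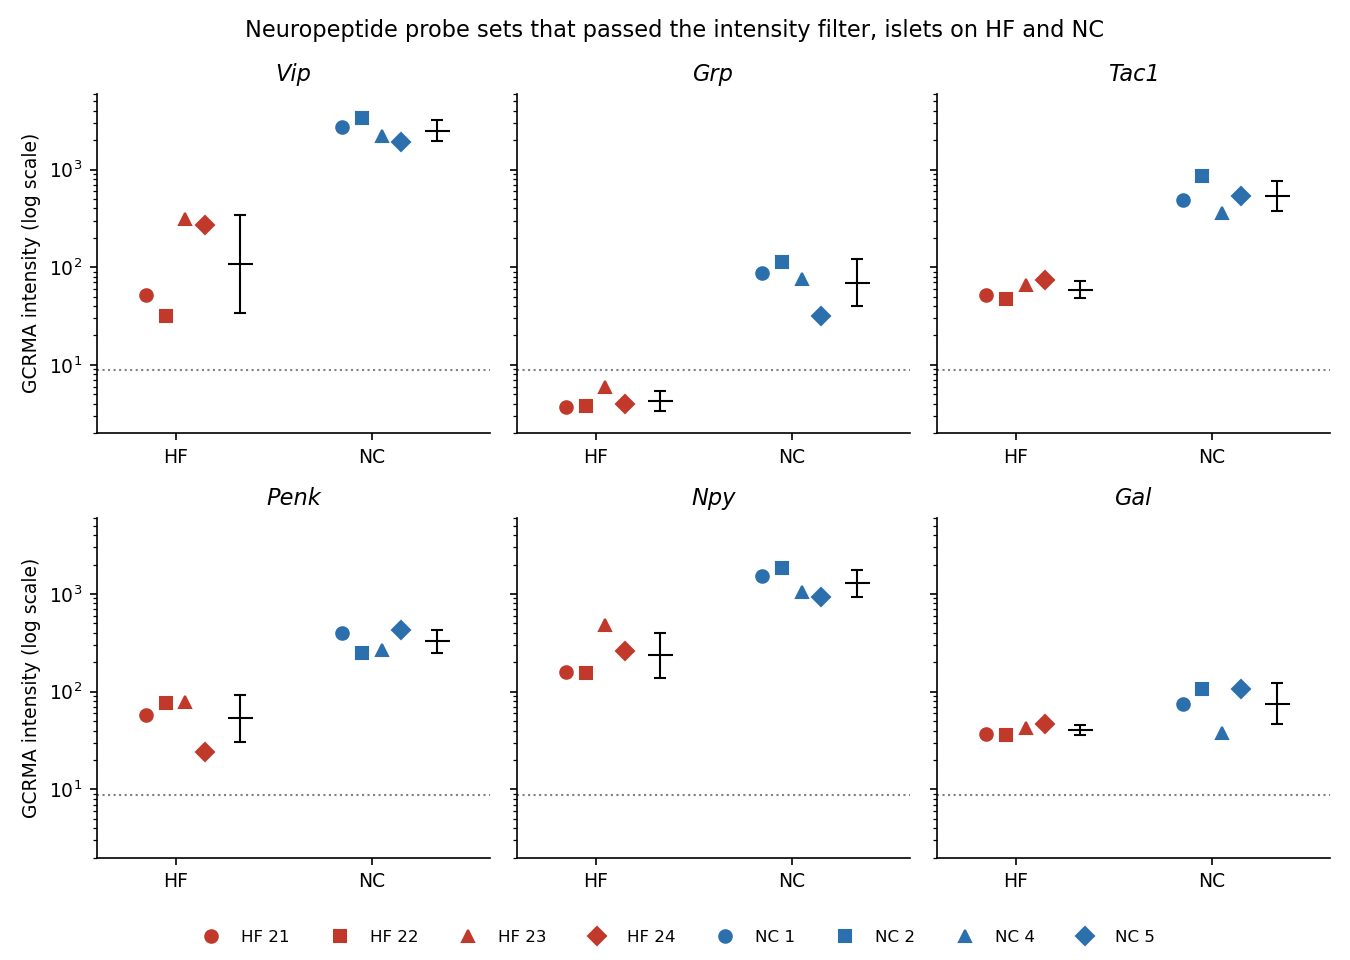
GCRMA intensity (log scale) of the 6 retained neuropeptide probe sets in each of 4 HF (red) and 4 NC (blue) samples; black bars give mean ± SD on the log2 scale, and the dotted line is the intensity of 8.82. The HF samples lie below the NC samples for Vip, Grp, Tac1, Penk and Npy, while for Gal NC replicate 4 lies among the HF samples.

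Vip, a relaxant peptide that also raises glucose-stimulated insulin release, had intensities of 51.7, 31.4, 309 and 269.6 in HF replicates 21, 22, 23 and 24. The NC values were 2706, 3391, 2192 and 1926 in replicates 1, 2, 4 and 5. The HF samples thus formed a lower pair and a higher pair, and even the highest was 16.1% of the lowest NC sample. The mean was 165 ± 144 in HF and 2554 ± 645 in NC (SD, n = 4 each). The log2 fold change was -4.53 (standard error 0.74, adjusted p = 0.0118 from limma), a 23.1-fold lower level with a 95% interval of 7.13 to 75.1. Among retained probe sets 1 fell by more. The HF samples spread over 9.85-fold and the NC samples over 1.76-fold, so that the size of the fall was less certain than its direction. It was -3.94 on the log2 scale without HF replicate 22 and -5.04 without HF replicate 23. The call ended with the methods' t-test after adjustment (adjusted p = 0.0527), with the same fold. The window around the Vip start site (chr10:5638968-5639267, plus strand, RefSeq on GRCm38.p6) is shown because Vip fell most, and capitals mark TGACG, the core of the cAMP response element, on either strand.
Vip: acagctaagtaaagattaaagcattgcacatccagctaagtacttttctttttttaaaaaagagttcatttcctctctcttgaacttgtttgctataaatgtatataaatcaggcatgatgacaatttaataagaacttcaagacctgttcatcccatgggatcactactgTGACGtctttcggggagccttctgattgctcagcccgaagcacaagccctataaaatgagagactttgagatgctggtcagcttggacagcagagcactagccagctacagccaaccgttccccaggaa

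Grp, a releaser of gastrin that also acts on islet cells, had 3.71, 3.76, 6.01 and 3.96 in HF replicates 21 to 24. In NC it had 88.1, 112, 75.6 and 31.3 in replicates 1, 2, 4 and 5. All HF values lay under 8.82, so that they give only an upper limit, while all NC values lay above it. Against that level, the geometric mean of NC put Grp at least 7.88-fold lower in HF. The adjusted p was 0.00155 from limma on the values as given and 0.00340 with low values raised to 8.82. Its measured means were 4.36 ± 1.10 in HF and 76.8 ± 33.9 in NC (SD, n = 4 each). With the raised values its log2 fold change was -2.98, and with 16 added to each value it was -2.10, each with the call kept.

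Adcyap1, the gene of the VIP-related peptide PACAP, was read by 2 probe sets, and both stayed below the retained level in all 8 samples. The brighter probe set had 7.06 to 7.75 in HF and 7.15 to 7.52 in NC. The dimmer had 4.53 to 4.70 in HF and 4.58 to 4.62 in NC. The groups overlapped in both, and a difference between the diets was not detectable at this signal.

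Tac1, the precursor of substance P and neurokinin A, had 51.6, 47.8, 66.5 and 73.2 in HF replicates 21 to 24 on its brighter probe set. The NC values were 488, 859, 362 and 537 in replicates 1, 2, 4 and 5. All HF samples lay close together, within 1.53-fold, and the highest was 20.2% of the lowest NC sample. The mean was 59.8 ± 12.0 in HF and 562 ± 212 in NC (SD, n = 4 each). Tac1 had the smallest adjusted p of the 6 probe sets, with a log2 difference of -3.18 (SE 0.26, adjusted p = 9.82e-04), a 9.08-fold lower level with a 95% interval of 6.00 to 13.7. The second Tac1 probe set was dim, with 8.01 to 8.82 in HF and 8.10 to 8.41 in NC, and it showed no such difference. The Tac1 start site window (chr6:7554811-7555110, plus strand, GRCm38.p6) is given for comparison with that of Vip, with TGACG on either strand in capitals.
Tac1: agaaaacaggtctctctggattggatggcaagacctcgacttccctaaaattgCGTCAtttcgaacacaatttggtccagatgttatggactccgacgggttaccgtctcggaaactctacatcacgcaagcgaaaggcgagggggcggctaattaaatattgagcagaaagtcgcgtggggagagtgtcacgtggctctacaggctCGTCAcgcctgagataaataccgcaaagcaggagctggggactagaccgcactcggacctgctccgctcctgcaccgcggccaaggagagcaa

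Npy, a cotransmitter of noradrenaline that inhibits insulin release, had 159.6, 154, 483 and 259 in HF replicates 21 to 24. In NC replicates 1, 2, 4 and 5 it had 1522, 1860, 1059 and 936. HF replicate 23 stood highest of its group, as in Vip, and NC replicate 5 stood lowest of its group, as in Vip and Grp. The highest HF sample was 51.6% of the lowest NC sample, the narrowest gap among the 5 called probe sets. The mean was 264 ± 154 in HF and 1344 ± 426 in NC (SD, n = 4 each), and the log2 difference was -2.46 (SE 0.39, adjusted p = 0.0106), a 5.50-fold lower level with a 95% interval of 2.95 to 10.2.

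Gal, an inhibitor of insulin release, had 37.3, 35.8, 42.6 and 46.9 in HF replicates 21 to 24. The NC values were 75.2, 105, 37.9 and 108 in replicates 1, 2, 4 and 5. NC replicate 4 lay within the range of HF, and the other NC samples lay above it. The mean was 40.6 ± 5.09 in HF and 81.5 ± 32.7 in NC (SD, n = 4 each). The log2 fold change was -0.90 with a 95% interval of -1.63 to -0.17 before adjustment, and it did not pass the test (standard error 0.32, adjusted p = 0.150, exact two-sided permutation p = 0.0857). Without NC replicate 4 it was -1.23 and passed (adjusted p = 0.00767), and without any other single sample it did not. The Npy window (chr6:49822460-49822759, plus strand) and the Gal window (chr19:3414495-3414794, minus strand), both on GRCm38.p6, are shown with the same capitals.
Npy: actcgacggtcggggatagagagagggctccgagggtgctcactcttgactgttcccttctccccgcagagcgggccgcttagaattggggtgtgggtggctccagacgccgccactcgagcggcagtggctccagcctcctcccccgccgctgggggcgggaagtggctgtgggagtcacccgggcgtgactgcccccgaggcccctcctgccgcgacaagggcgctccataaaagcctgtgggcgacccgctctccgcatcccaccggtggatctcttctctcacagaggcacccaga
Gal: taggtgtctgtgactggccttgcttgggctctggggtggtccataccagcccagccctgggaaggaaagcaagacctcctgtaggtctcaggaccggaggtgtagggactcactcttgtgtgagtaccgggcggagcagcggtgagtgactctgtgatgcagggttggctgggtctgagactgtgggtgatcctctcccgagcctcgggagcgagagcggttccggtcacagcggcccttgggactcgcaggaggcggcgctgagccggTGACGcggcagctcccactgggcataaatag

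Penk, the precursor of the enkephalins, had 57.9, 76.2, 77.7 and 23.9 in HF replicates 21 to 24. In NC replicates 1, 2, 4 and 5 it had 403, 247, 266.5 and 429.8. Here HF replicate 24 was the lowest of its group, whereas in Vip, Tac1, Gal and Npy it was the highest or second highest. The NC order also differed from that of Vip and Npy, since NC replicate 5 was highest and NC replicate 2 lowest. The mean was 58.9 ± 25.0 in HF and 337 ± 93.1 in NC (SD, n = 4 each), and the log2 difference was -2.61 (SE 0.39, adjusted p = 0.00821), a 6.11-fold lower level with a 95% interval of 3.28 to 11.4.

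The remaining peptides were dim. Cartpt had 3.80, 4.28, 3.66 and 4.07 in HF replicates 21 to 24, and 7.15, 12.97, 6.89 and 4.25 in NC replicates 1, 2, 4 and 5. Of these 8 values NC replicate 2 alone was above 8.82, and NC replicate 5 lay just below HF replicate 22, so that the groups overlapped (exact two-sided permutation p = 0.0571, n = 4 each). In a fit without the filter its adjusted p was 0.257 from limma. Nmu had 4.09 to 4.25 in HF and 4.11 to 4.18 in NC, with overlapping groups.

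**Figure D2:**
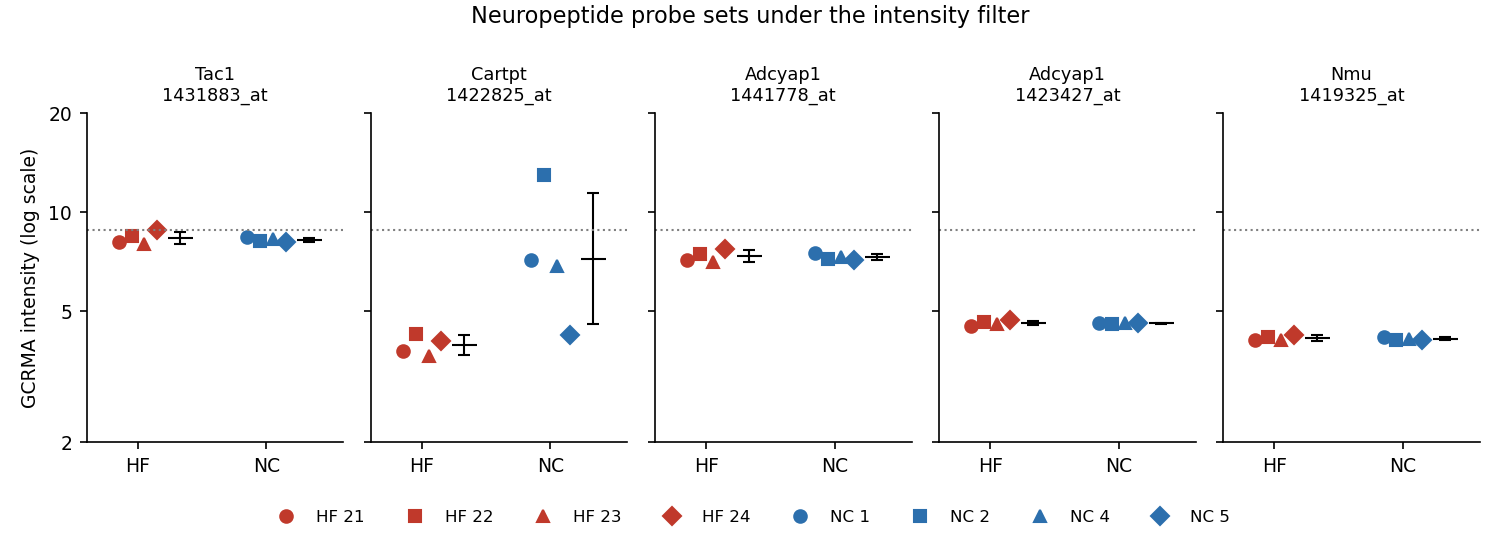
GCRMA intensity (log scale) of the 5 neuropeptide probe sets below the retained level in each of 4 HF (red) and 4 NC (blue) samples. Black bars give mean ± SD on the log2 scale, and the dotted line is the intensity of 8.82. Cartpt spreads most over the samples, with NC replicate 2 at 12.97.

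Without Grp, whose HF values give only a limit, the fold changes were ordered Vip, Tac1, Penk, Npy and Gal. Neighbours in this order were not shown to differ. The 5 probe sets form 10 pairs, which were compared by the log2 ratio of both within each sample. Of these 4 reached the smallest p that the exact two-sided permutation test allows with 4 against 4 (p = 0.0286, adjusted p = 0.0714 over the pairs). They were the pairs of Gal with Vip, Tac1 and Penk and that of Npy with Vip. The log2 fold change of Vip minus that of Gal was -3.63, and minus that of Npy it was -2.07. None of the 10 pairs had an adjusted p under 0.05.

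**Figure D3:**
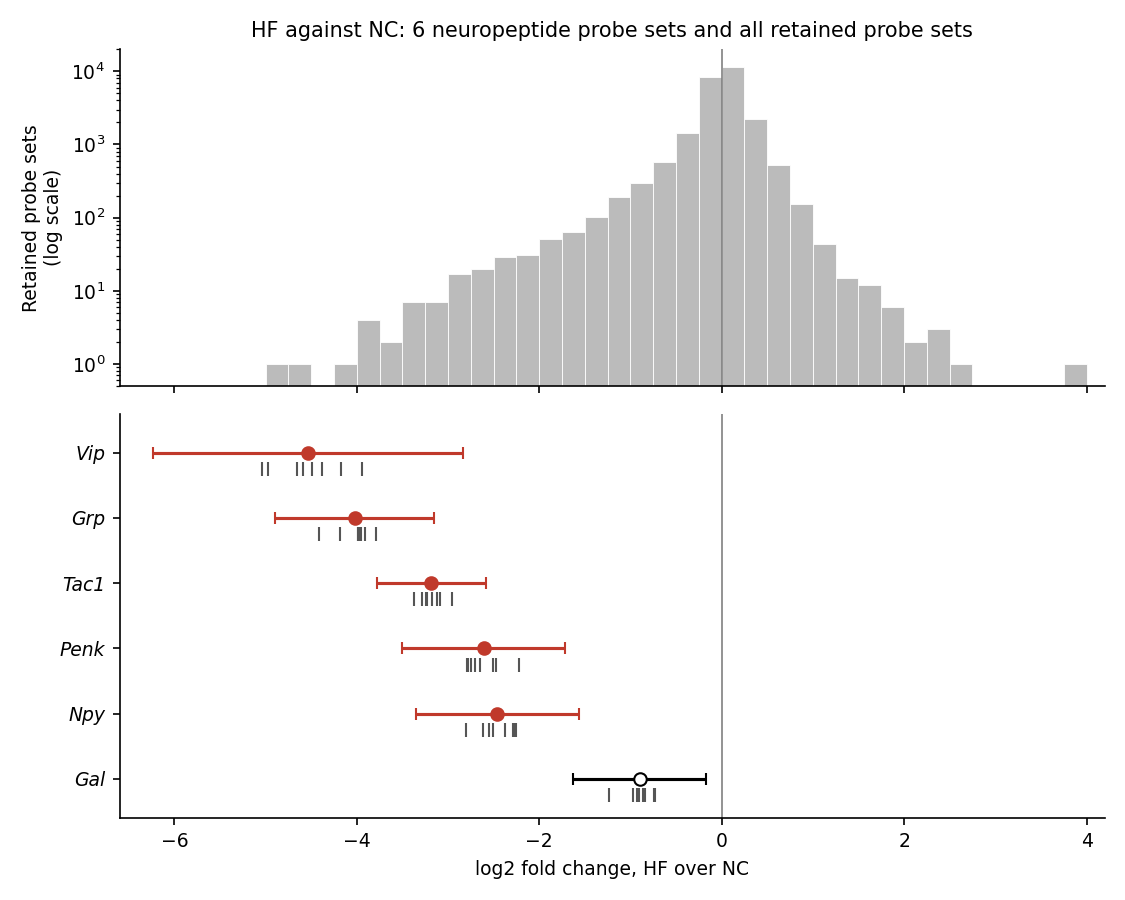
Log2 fold change (HF over NC) of all retained probe sets as a histogram with a log count axis (top), and of the 6 neuropeptide probe sets (bottom) with 95% intervals from limma, filled red where the test was passed. The ticks below each point are the values without 1 sample in turn, which lie between -5.04 and -3.94 for Vip and between -1.23 and -0.73 for Gal, and the point of Grp rests on HF values under 8.82.

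Samples deviated in a partly shared way within a diet. HF replicate 23 was above the HF mean in each of the 5 probe sets measured in HF and the highest of its group in 3 of them (Vip, Npy and Penk). HF replicate 22 was the lowest of its group in 4 (Vip, Tac1, Npy and Gal), and NC replicate 2 the highest of its group in 4. Neuron markers shared part of this order, though HF replicate 21 was lowest of HF in them. Their mean log2 level, centred over the 8 samples, was -0.77, -0.72, 0.11 and -0.57 in HF replicates 21 to 24, and 0.64, 0.68, 0.45 and 0.18 in NC replicates 1, 2, 4 and 5. Thus HF replicate 23 was highest of HF and NC replicate 5 lowest of NC in the neuron markers, as in Npy. For fibroblast markers the corresponding values were -1.39, -0.74, -1.05 and -1.84 in HF and 1.36, 1.17, 0.99 and 1.5 in NC. HF replicate 24 was lowest there and NC replicate 5 highest, as in Penk. Parts of these orders were also seen in other lists. In Schwann and glial cell markers HF replicate 23 was highest of HF (-0.52) and HF replicate 24 lowest (-0.95). NC replicate 5 was lowest of NC there (0.66). In endothelial markers HF replicate 23 was likewise highest of HF (-0.17) and HF replicate 24 lowest (-0.365). So it was in delta and PP cell markers (-0.08 and -0.23), where NC replicate 5 was lowest of NC (0.06). HF replicate 23 was highest of HF in acinar markers (0.13) but lowest of HF in beta cell markers (0.01). HF replicate 24 was lowest of HF in alpha cell markers (-0.38) and in macrophage and leukocyte markers (-0.63). With 4 samples a diet these orders were not tested.

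**Figure D4:**
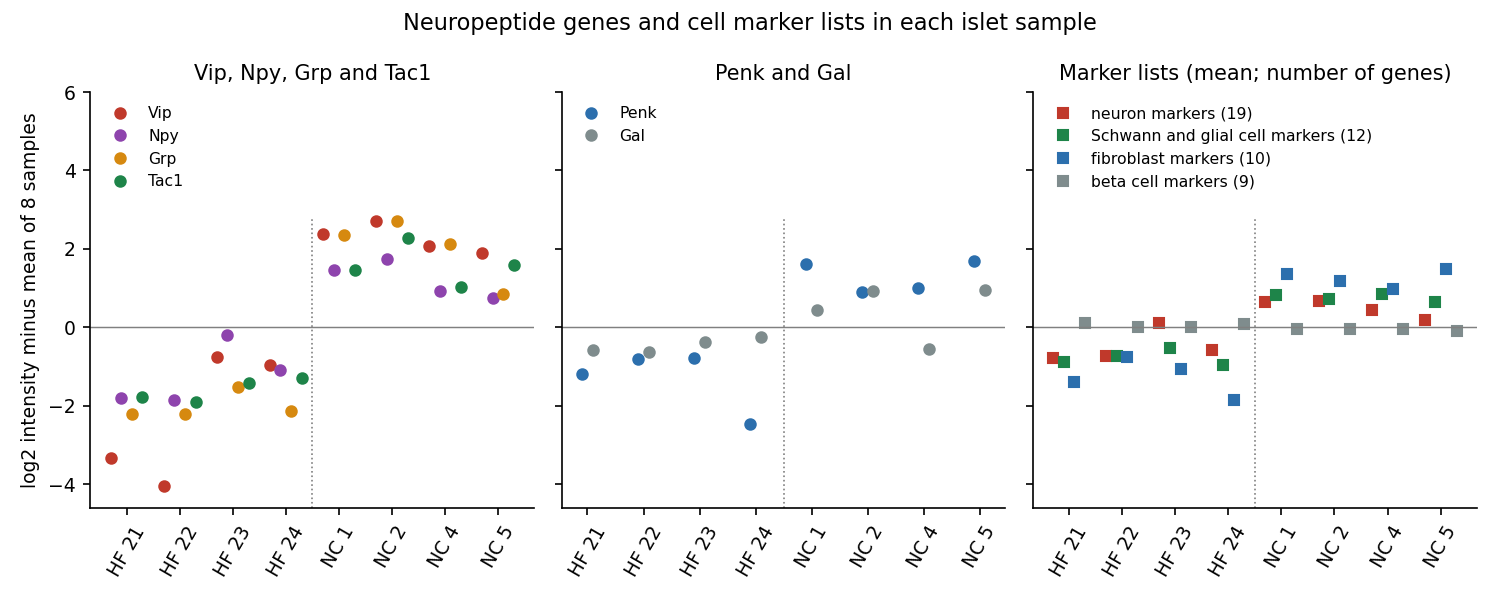
Log2 intensity minus the mean of the 8 samples (y axis) for Vip, Npy, Grp and Tac1 (left), for Penk and Gal (middle), and for the mean of the retained markers of each cell type (right), in each HF and NC sample. HF replicate 23 is the highest HF sample for Npy and for the neuron markers, and HF replicate 24 is the lowest for Penk and the fibroblast markers. In the Schwann and glial cell markers HF replicate 23 is the highest and HF replicate 24 the lowest HF sample.

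The genes whose pattern over the 8 samples lay nearest to each called neuropeptide were found by the root mean square distance of centred log2 values. Penk had the closest neighbours, with Gdf10, a growth factor of the TGF-beta family, at 0.160, Dcn, the matrix proteoglycan decorin, at 0.189 and Abca8a, a membrane transporter, at 0.232. Dcn had 726, 746, 904 and 333 in HF replicates 21 to 24, and 3590, 2650, 2830 and 4996 in NC replicates 1, 2, 4 and 5. It was lowest in HF replicate 24 and highest in NC replicate 5, like Penk. Nearest to Npy were Fmod, the matrix protein fibromodulin, at 0.310, Nsg2, a vesicle protein of neurons, at 0.311 and Slc2a3, the glucose transporter GLUT3, at 0.325. Fmod had 11.5, 15.0, 25.0 and 17.0 in HF replicates 21 to 24. In NC replicates 1, 2, 4 and 5 it had 130.5, 130, 96.0 and 95.5. Nsg2 had 53.1, 38.0, 181 and 65.7 in HF replicates 21 to 24. It had 345, 414, 322 and 176 in NC replicates 1, 2, 4 and 5, so that HF replicate 23 exceeded NC replicate 5. For Tac1 the nearest were P2ry10 at 0.384, Fmod at 0.397 and the cadherin Cdh11 at 0.471. Neighbours of Grp were Lrg1 at 0.645, Fmod at 0.753 and Thy1 at 0.768, with distances that rest in part on HF values under 8.82. Those of Vip were farthest, with Dpysl3 at 0.802, Igha at 0.904 and Jchain at 0.960. The distances include the difference between the diets, which all these genes share.

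Markers of nerve and of other cells were read in the same samples. By share of retained genes, fibroblast markers had the most calls (100%). Schwann and glial cell markers and macrophage and leukocyte markers followed with 66.7% each. Of 26 neuron markers 19 were retained, of which 2 were lower and none higher (median log2 fold change -0.44), against 4.28% lower and a median of 0.00 among all 12299 retained genes. The 2 were Gfra2, a receptor for neurturin, with 44.4 ± 27.9 in HF and 257 ± 62.9 in NC, and Hand2, a transcription factor of autonomic neurons and of mesenchyme, with 35.4 ± 27.4 in HF and 193 ± 32.4 in NC (SD, n = 4 each). The log2 fold change was -2.73 for Gfra2 (adjusted p = 0.0119 from limma) and -2.74 for Hand2 (adjusted p = 0.0150). The call differed between probe sets of a gene. A second probe set of Gfra2 had a log2 fold change of -0.86 and one of Hand2 of -0.26, and neither passed. Second probe sets of Nefl, a neurofilament gene, and of Stmn2, a growth cone protein gene, passed as lower with -2.67 (adjusted p = 0.0311 from limma) and -2.21 (adjusted p = 0.0254), while the brightest ones, with -2.63 and -2.27, did not. Without HF replicate 23 there were 7 lower neuron markers, and with the methods' t-test after adjustment there were 0. Prph, the neurofilament protein peripherin, chosen after its values were seen, had 9.02, 11.7, 88.6 and 19.4 in HF replicates 21 to 24 and 226, 263, 170.3 and 75.2 in NC replicates 1, 2, 4 and 5. Its log2 fold change was -3.01 on this probe set (adjusted p = 0.0508 from limma) and -0.04 on another retained one (adjusted p = 0.816). Several listed neuron markers are also expressed by islet endocrine cells, and one of them, Snap25, had a log2 fold change of -0.09. The summed level of the retained neuron markers was 13718 to 18258 in HF and 17691 to 21316 in NC, and these ranges overlap. The sum is mostly that of Snap25 and Ret, with 8866 and 3102 on average in HF and 9462 and 3740 in NC. The mean log2 level of the list, in which each gene counts alike, was 6.73 to 7.61 in HF and 7.68 to 8.19 in NC, without overlap. The cholinergic markers Chat, Slc18a3 and Slc5a7 were below the retained level, as were Elavl3 and Scn10a.

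Schwann and glial cell markers fell in 8 of 12 retained genes of 17 listed (median -1.23), among them Pmp22 with a log2 fold change of -1.32, Kcna1 with -2.52 and Cdh19 with -3.73. Their summed level was 2751 to 3161 in HF and 4761 to 4998 in NC. Of these markers Foxd3, Gfap and Gfra3 were below the retained level. Further probe sets of Kcna1 differed, with -3.26 passed as lower and -0.33 not passed. Mbp was not called on its brightest probe set (-0.13), nor on one with 0.50, while others passed as lower, down to -1.93. All 10 fibroblast markers fell on their brightest probe sets (median -2.43), and their summed level was 2654 to 4767 in HF and 13401 to 19222 in NC. Further retained probe sets of Col1a1 (-0.66) and Pdgfra (-0.06) did not pass, while those of Col1a2, Col3a1 and Vim passed as lower. Over all alternatives 8 to 10 fibroblast markers were lower. Of 9 endothelial markers 2 fell (median -0.54). This count was 4 without HF replicate 23, 3 without HF replicate 22 or NC replicate 4, and 6 with scaling on beta cell markers. Of 6 retained macrophage and leukocyte markers 4 fell (median -0.98). None of the 9 retained beta cell, 4 alpha cell, 5 delta and PP cell and 6 acinar markers passed in either direction, with medians of 0.11, -0.39, -0.25 and -0.03. Without HF replicate 21 limma called 1 alpha cell marker lower, as it did with the stricter filter and with scaling on beta cell markers. Over all alternatives at most 2 alpha cell markers were lower. The part of these cells in the neuropeptide changes was not tested. In a scaling chosen after the values were seen, which sets the arrays to equal mean log2 levels of neuron markers, the log2 fold changes were -3.56 for Vip, -3.05 for Grp, -2.21 for Tac1, -1.64 for Penk, -1.48 for Npy and 0.076 for Gal. Scaled on Schwann and glial cell markers in the same way they were -3.00 for Vip, -2.49 for Grp, -1.65 for Tac1, -1.07 for Penk, -0.92 for Npy and 0.64 for Gal. Gal changed sign under both, and the other 5 did not. The values of Grp rest on HF intensities under 8.82, taken as given. These 2 scalings shift whole arrays and are given as values with no test.

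Of the receptors of the peptides 10 of 26 listed genes were retained. Of these 2 were lower and none higher (median -0.18), against 4.28% lower among all retained genes. Both were receptor activity-modifying proteins, which pair with the receptor Calcrl and were listed with the receptors. The other 8 retained genes were not called. Among these was Ramp1, a protein of the same kind, with a log2 fold change of -0.30 (adjusted p = 0.292). Ramp2 had 378, 403, 464 and 402 in HF replicates 21 to 24 and 582, 700.3, 599 and 707 in NC replicates 1, 2, 4 and 5, with a log2 fold change of -0.65 (adjusted p = 0.00679). Ramp3 had a log2 fold change of -0.66 (adjusted p = 0.0176), with 253 ± 31.8 in HF and 399 ± 46.9 in NC (SD, n = 4 each). The groups did not overlap in either. Calcrl, their partner receptor, had a log2 fold change of -0.58 (adjusted p = 0.0278), just under the fold limit, on its brightest probe set and 0.12 on another. Without NC replicate 2 and without HF replicate 23 the count of lower receptors was 1. Adcyap1r1, the PACAP receptor, had 8.02, 9.23, 7.35 and 5.27 in HF replicates 21 to 24 and 44.8, 25.5, 15.99 and 9.19 in NC replicates 1, 2, 4 and 5 (log2 fold change -1.47, adjusted p = 0.104, with 3 HF values under 8.82), and the groups touched, since HF replicate 22 exceeded NC replicate 5. Vipr1, a receptor for VIP and PACAP, had a log2 fold change of -0.01 and Galr1, a galanin receptor, of -0.07, and neither passed. Receptors below the retained level included Vipr2, Grpr, Tacr1, Npy1r and Nmur1.

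Among other neuropeptide genes no call was made. Of 41 listed 8 were retained, and 0 were lower or higher by limma, with a median of 0.11. By the methods' t-test without adjustment 1 was lower and 1 higher. Without HF replicate 23 limma called 2 higher, and without HF replicate 22 it called 1 lower. It also called 1 lower with the stricter filter and with scaling on beta cell markers. The brightest were Scg2, a granin, with a log2 fold change of 0.15, and Ucn3, the beta cell peptide urocortin 3, with 0.08. The widest differences, picked after the values were seen, were in Ghrl, the gene of ghrelin, and Pdyn, the precursor of the dynorphins. Ghrl had 24.3, 80.2, 24.5 and 41.2 in HF replicates 21 to 24 and 188, 79.4, 129 and 115 in NC replicates 1, 2, 4 and 5 (log2 fold change -1.70, adjusted p = 0.0537). Pdyn had 1018, 768, 444 and 1022 in HF replicates 21 to 24 and 460.3, 373, 414 and 255 in NC replicates 1, 2, 4 and 5 (log2 fold change 1.07, adjusted p = 0.0761). In each of them 1 HF sample crossed into the NC range.

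Enzymes that cut and modify neuropeptide precursors were read by their brightest probe sets. Of 12 listed 10 were retained, and none passed at 1.5-fold, with a median of 0.00 and a range of -0.40 to 0.54. Without the fold limit 2 were higher and 1 lower, and 1 was higher at 1.5-fold without HF replicate 22 and after a further quantile normalization. Of the 6 retained probe sets of Cpd, a carboxypeptidase, 1 was called higher with a log2 fold change of 0.99 (adjusted p = 0.0278 from limma), while the brightest had -0.20. Of the 3 probe sets of Ece1, an endothelin-converting enzyme, the highest log2 fold change was 0.84 (adjusted p = 0.0571), while the brightest had -0.11. Pam, which amidates the C-terminus of peptides such as VIP and NPY, had 64.7, 56.5, 78.5 and 66.1 in HF replicates 21 to 24 and 45.0, 43.7, 48.8 and 43.8 in NC replicates 1, 2, 4 and 5. Its log2 fold change was 0.54 (adjusted p = 0.0183), below the fold limit. Pcsk1, a prohormone convertase, had a log2 fold change of 0.34 (adjusted p = 0.0312). Cpe, the carboxypeptidase that trims the cut peptides, had a log2 fold change of 0.07, and Scg5, a helper protein of a convertase, of 0.02.

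**Figure D5:**
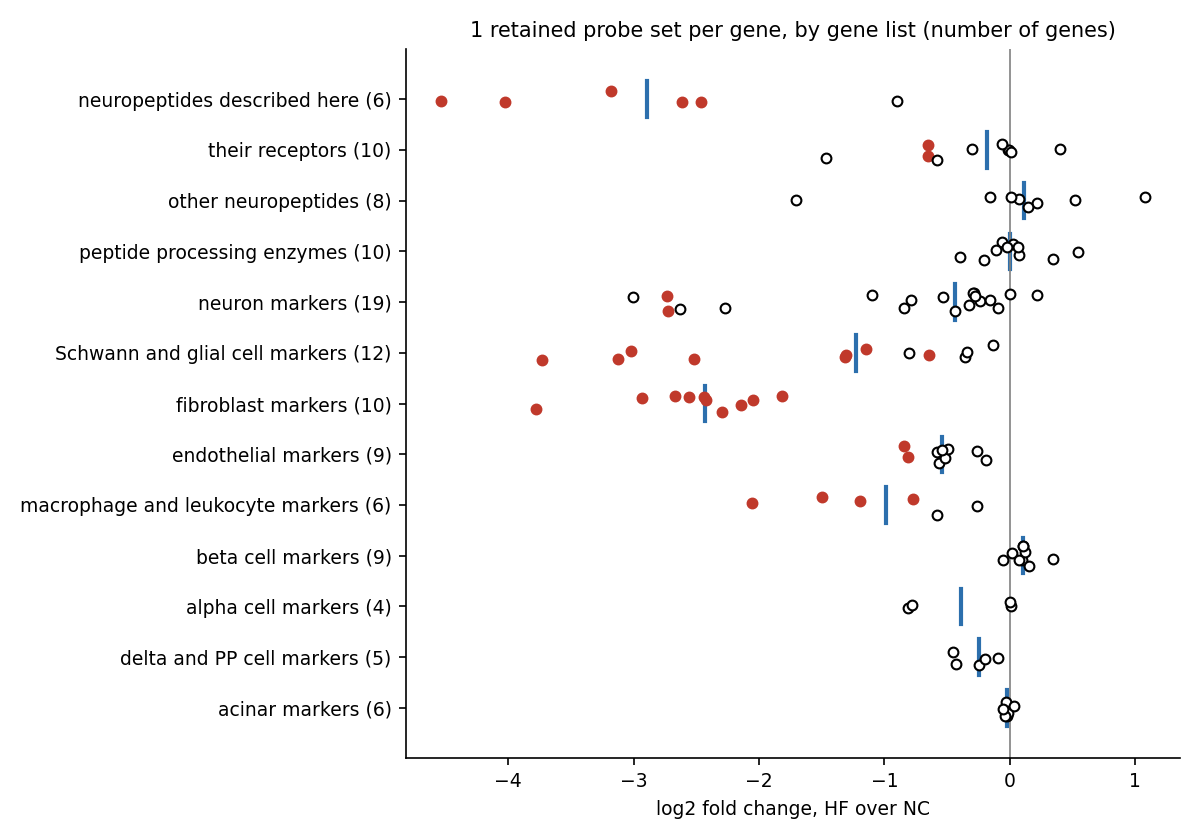
Log2 fold change (HF over NC, x axis) of 1 retained probe set per gene in the neuropeptide genes, their receptors, other neuropeptides, processing enzymes and cell marker lists, with the number of genes in brackets. Filled red points passed the test and blue bars are medians, from -2.90 for the described neuropeptides (-2.79 with Grp at its limit) to 0.11 for other neuropeptides and for beta cell markers.

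Start site windows of 300 bases from RefSeq (GRCm38.p6) were matched to 8 of the 10 genes, and none was matched to Grp or Penk. TGACG was found on either strand in 8 of the 9 windows of these 8 genes, against 20.8% of all 32851 windows. The 2 windows of Adcyap1 overlap and share 1 match. The windows of Vip, Tac1, Gal, Calca, Cartpt, Adcyap1 and Nmu held a match and that of Npy did not. The match in Vip began 79 bases before the start site, and those in Tac1 197 and 43 bases before it. The full palindrome TGACGTCA, which contains TGACG on both strands, was found in Cartpt, against 1.79% of all windows. These matches describe letters in the windows, and whether they bear on the differences was not tested. Among the called genes with a window, Vip and Tac1 had a match and Npy did not. The match of Gal, which was not called, began 19 bases after the start site.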

How the data were processed

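Islet RNA of 4 HF and 4 NC samples was measured on Affymetrix mouse MOE 430v2 arrays, 1 array per pool of 2 mice. With ArrayAssist Lite 3.4 the authors turned the scans into 1 GCRMA value per probe set, a deposited intensity on a linear scale. Its log2 was analysed without further normalisation. Present calls were not used here, so probe sets were ranked by the third-highest of their 8 intensities, and as many were retained as by the present-call filter of the methods, down to 8.82. HF and NC were compared with limma 3.58.1 in R 4.3.3 (lmFit and eBayes), with Benjamini-Hochberg adjustment over the retained probe sets, and adjusted p-values are from limma unless another test is named. The SAM test that the methods used for the arrays was not run. The methods' t-test stands here for their unpaired Student's t-test, which they do not name for the arrays. Single values were tested by exact two-sided permutation over 70 arrangements. The number of arrays limits the precision, and p-values measure the spread between pools. In data simulated with independent normal noise, changes were added to a small part of the same probe sets. There limma found 28% of 1.5-fold, 80% of 2-fold and 96% of 4-fold changes. Such shares depend on how many probe sets change, so they need not hold for the measured data.

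For gene lists 1 probe set per gene was used, the retained one with the highest mean. Named were every probe set of the 10 genes, the 3 nearest patterns of each called one and, of each other list, up to 3 called genes by smallest p or else the 2 with the highest mean. Other genes were chosen after their values were seen. The 10 genes, the lists and the tests were chosen with earlier results of these data known. Alternatives were other filters, scalings, variance models and thresholds, low values raised to 8.82, an added constant of 16, the methods' t-test, 1 probe set per gene and leaving out each sample.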

Additional observations from a re-analysis of the deposited data

Results flagged for a closer look

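Of the 22 groups of 4 values (11 probe sets on 2 diets), 1 held a sample set apart from the other 3. For Grp, HF replicate 23 had an intensity of 6.01, while the other HF samples had 3.71 to 3.96, and the gap took 0.861 of the group's range on the log2 scale. Chance alone sets apart a sample in about 1 of 20 groups. All 4 values lie under 8.82, the lowest level retained.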

How the results depend on the processing

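Vip, Grp, Tac1, Penk and Npy kept their direction in every alternative run and their call in all tested ones but 1, the methods' t-test with adjustment for Vip (adjusted p = 0.0527), which left 4 called. Gal passed without NC replicate 4 and in the methods' t-test without adjustment. It reversed to 0.076 with arrays scaled on neuron markers and to 0.64 on Schwann and glial cell markers, both scalings chosen after seeing the data and run without a test. Leaving out each sample gave 5 to 6 lower neuropeptide probe sets, 93 to 158 higher and 543 to 759 lower probe sets in all, against 165 and 783. Higher probe sets numbered 93 without NC replicate 1 or HF replicate 24, 101 without NC replicate 2, 109 without HF replicate 21, 85 when no probe set was left out as dim, 92 with scaling on beta cell markers (1136 lower), 59 with the methods' t-test after adjustment (450 lower), 332 without adjustment, 520 with no fold limit, 47 with a 2-fold limit (432 lower) and 66 with 1 probe set per gene (590 lower). The causes were not tested. Scaling on beta cell markers moved the median of all retained probe sets to -0.09, against 0.02. No paired analysis was possible because the HF and NC samples share no replicate numbers. Low signal limits Grp in HF, Cartpt, Adcyap1 and Nmu.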
